A study of Mus musculus with 6 samples.

Results

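The 9 genes described here encode transcriptional regulators of pachytene spermatocytes and of spermatids, the haploid cells that form sperm. They were taken by name, as Mybl1, Tcfl5, Pou5f2, Rfx2, Sox30, Sox5, Tbpl1, Crem and Fhl5, and all 9 were found among the 23253 genes listed in at least one of 6 deposited testis tables. The samples were testes of C57BL/6 mice, 8 months old, and sequencing followed oligo(dT) selection of messenger RNA. There are 3 libraries labelled L3mbtl2 cKO (conditional knockout) and 3 labelled control, and the comparison asks what differs in testis RNA when L3mbtl2 is deleted. L3mbtl2 encodes a subunit of a Polycomb repressive complex. The labels name neither the Cre driver nor the cells in which the gene was deleted, nor whether each library came from its own mouse. The p-values therefore speak for the spread among these 6 libraries alone, and that spread may be technical.

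Spermatogenesis runs through successive bursts of transcription. In pachytene spermatocytes the MYB-family factor MYBL1 (A-MYB) turns on meiotic genes and the precursors of pachytene piRNAs, and it acts together with the helix-loop-helix factor TCFL5. RFX2, SOX30 and the TATA-binding-protein relative TBPL1 are needed in mice for round spermatids to develop. CREM, with its testis coactivator FHL5 (ACT), binds cyclic-AMP response elements, and mice without CREM stop at the round spermatid stage.

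Promoter windows from RefSeq (build GRCm38.p6, 250 bases before to 50 after a start) were found for 7 of the 9 genes, 8 windows in all. Those of Mybl1 and Crem are not shown. The windows of Sox30, Sox5 and Tbpl1 lie inside the gene spans given below, at internal starts. So does the Fhl5 window at chr4:25242217-25242516. Because MYBL1 is the factor placed at the head of this group, the windows were searched on both strands for the MYB core AACNGNC, which 32.8% of 32851 promoter windows of that length hold. It was present at Tcfl5, Pou5f2, Rfx2 and Sox5, 4 of 7 genes. The first 3 of these are printed here 5′ to 3′ on the gene's strand, with matches to the core in capitals. They lie at chr2:180642642-180642941 (minus strand), chr13:78024652-78024951 (plus strand) and chr17:56830959-56831258 (minus strand).
Tcfl5: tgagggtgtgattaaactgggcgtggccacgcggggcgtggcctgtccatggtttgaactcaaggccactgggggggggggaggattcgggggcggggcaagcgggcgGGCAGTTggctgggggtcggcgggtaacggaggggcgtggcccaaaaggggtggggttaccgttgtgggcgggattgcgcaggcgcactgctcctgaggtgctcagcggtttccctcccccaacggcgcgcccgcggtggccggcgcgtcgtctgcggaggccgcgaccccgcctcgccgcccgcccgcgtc
Pou5f2: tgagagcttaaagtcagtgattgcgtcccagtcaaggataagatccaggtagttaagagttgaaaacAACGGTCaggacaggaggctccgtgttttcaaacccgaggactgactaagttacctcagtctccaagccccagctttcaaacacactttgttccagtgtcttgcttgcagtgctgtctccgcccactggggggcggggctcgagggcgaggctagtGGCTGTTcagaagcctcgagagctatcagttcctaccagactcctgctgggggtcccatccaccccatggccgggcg
Rfx2: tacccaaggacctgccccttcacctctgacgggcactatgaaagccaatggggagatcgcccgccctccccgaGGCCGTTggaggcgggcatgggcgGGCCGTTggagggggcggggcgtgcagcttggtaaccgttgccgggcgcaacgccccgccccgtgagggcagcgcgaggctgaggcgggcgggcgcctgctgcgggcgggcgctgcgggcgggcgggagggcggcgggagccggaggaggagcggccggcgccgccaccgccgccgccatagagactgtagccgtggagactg
The full cyclic-AMP response element TGACGTCA, the E-box CACGTG and the octamer ATGCAAAT were in none of the 8 windows, and they occur in 1.79%, 7.15% and 1.74% of all windows. The shorter site TGACG was at Rfx2 alone (20.8% of all windows), and GTTGCC, one arm of the RFX site, at Rfx2 and Sox5 (12.5%). The SOX core ACAAT was at Sox30, Sox5 and Fhl5 (31.0%). A match is a description of the letters in these windows, with no binding measured.

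The deposited expected counts summed to between 18604191 and 18822050 in the libraries labelled cKO and between 17689205 and 18083291 in those labelled control. The targeted gene went against its label. L3mbtl2 was counted 1030, 1105 and 1031 times in the libraries labelled cKO, against 658, 705 and 673 times in those labelled control. Its log2 fold change was 0.67 (SE 0.10), with an adjusted p of 0.166 in edgeR's quasi-likelihood test and 0.000497 in DESeq2. That edgeR value was the lowest adjusted p of any gene tested. The adjustment gave it to many genes whose unadjusted p differed, so it does not rank them, and L3mbtl2 was at rank 6 by p. By FPKM, which divides by a deposited length that was longer under the cKO label, the gene was at 16.3 ± 0.663 in the libraries labelled cKO and 14.2 ± 0.660 in those labelled control, a difference of 0.19 in log2(FPKM + 1). The deposited tables also carry file names with the opposite genotype, and every direction given here follows the sample labels and would turn if these were exchanged. Libraries labelled control were less alike than those labelled cKO. Their pairwise correlations of log2 CPM (counts scaled to library size) across genes were 0.937 to 0.972, against 0.981 to 0.982, and control replicate 2 correlated at 0.980 to 0.982 with the libraries labelled cKO. Testis markers were detected throughout, and none of the pachytene, round or elongating spermatid, Sertoli or Leydig markers was at 0 in any library.

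All 9 genes were well read, with 407 to 9533 expected counts per library. Their FPKM values, which are scaled for transcript length by the authors and so can be set beside each other, fell into 3 tiers. Fhl5 was at the top, at 189 ± 15.7 FPKM in the libraries labelled cKO and 157 ± 23.9 in those labelled control (SD, n = 3 each). Below it came Tcfl5, at 149 ± 4.70 FPKM under the cKO label and 133 ± 19.0 under the control label. Rfx2 was close to it, at 144 ± 9.21 FPKM under the cKO label and 127 ± 26.3 under the control label. Fhl5 exceeded Tcfl5 in 6 of 6 libraries although their ranges overlapped, whereas Tcfl5 exceeded Rfx2 in 4 of 6, so the order of this pair is not settled. The middle tier held Sox30, Tbpl1 and Crem, with means over 6 libraries of 78.8, 78.4 and 71.3 FPKM. Sox30 was above Tbpl1 in 3 of 6 libraries, and Tbpl1 was above Crem in all 6. The lowest tier held Pou5f2, Sox5 and Mybl1 at 20.6, 19.1 and 14.2 FPKM, with Pou5f2 above Sox5 in 5 of 6 libraries and Sox5 above Mybl1 in 6 of 6. No library's value crossed from one tier to the next.

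**Figure D1:**
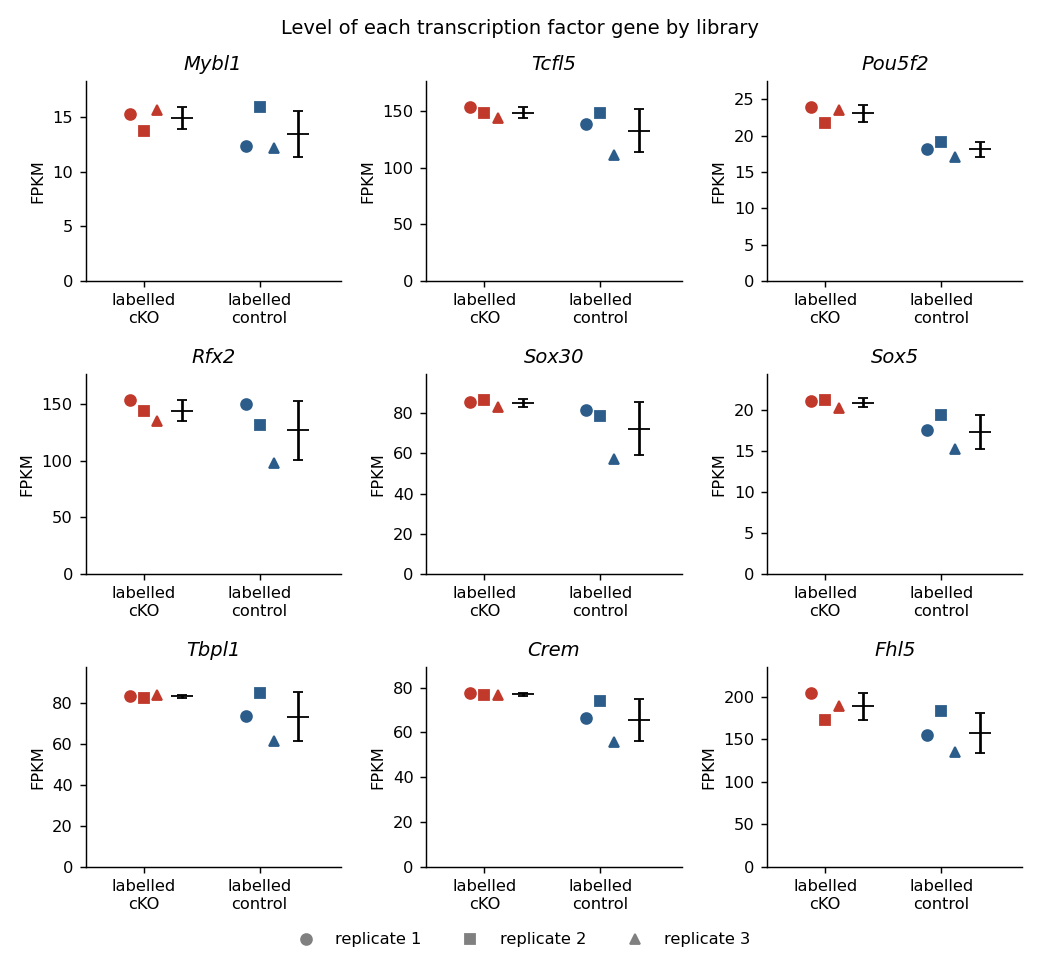
FPKM (y axis, from 0) of each of the 9 genes in the 3 libraries labelled cKO (red) and the 3 labelled control (blue), with symbols for replicate numbers and black bars for mean ± SD. By coefficient of variation in CPM the libraries labelled cKO spread less than those labelled control for all 9 genes, and the library labelled control replicate 3 gave the lowest CPM of all 9 genes among the libraries labelled control.

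Between the groups, all 9 genes had a higher mean in the libraries labelled cKO, by a small margin, under every scaling tried except that to stage markers, where 6 of the 9 turned negative. Log2 fold changes in edgeR ran from 0.24 to 0.45 (1.18-fold to 1.36-fold) with a median of 0.33, beside a median of -0.0048 over all 18269 genes tested, 49.5% of which were positive. None of the 9 passed an adjusted p of 0.05 in edgeR's quasi-likelihood test, which called 0% of all genes in either direction. At an unadjusted p of 0.05 the test took 4 of the 9, all higher, beside 8.85% of all genes higher and 18.8% lower. DESeq2 called 1 of the 9, Pou5f2, beside 0.405% of genes called higher, and limma on log2 FPKM called none. By CPM scaled with TMM (edgeR's trimmed-mean library scaling), 6 of the 9 (Tcfl5, Pou5f2, Sox30, Sox5, Tbpl1 and Crem) did not overlap between the groups and were higher in the libraries labelled cKO, beside 18.0% of all genes that were so placed and 19.8% placed the other way. By FPKM it was 4 of 9 (Pou5f2, Sox30, Sox5 and Crem), beside 9.60%. In bulk testis, fewer cells of a type and less RNA per cell cannot be told apart.

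Of the pachytene regulators, Pou5f2 separated the groups most. Pou5f2 (Entrez 75507, chromosome 13, 78024902 to 78026296) encodes a POU-domain protein of male germ cells and has 1 transcript in the tables. It had 23.9, 21.7 and 23.5 FPKM in the libraries labelled cKO, against 18.2, 19.1 and 17.0 FPKM in those labelled control. The groups did not overlap, and the spread within each was small. Its log2 fold change was 0.45 (SE 0.12), rank 364 of 18269 by p, with an adjusted p of 0.166 in edgeR and 0.0438 in DESeq2. An exact permutation test on log2 CPM gave a two-sided p of 0.1, the lowest value possible with 3 libraries a group.

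Mybl1 and Tcfl5 overlapped between the groups in FPKM. Mybl1 (Entrez 17864, chromosome 1, 9667407 to 9700439) had 15.3, 13.8 and 15.7 FPKM in the libraries labelled cKO, against 12.3, 15.9 and 12.2 FPKM in those labelled control. By FPKM, though not by CPM, the library labelled control replicate 2 was the highest of all 6 for Mybl1. On both scales control replicates 1 and 3 were the lowest for this gene. Its log2 fold change was 0.24 (SE 0.14, edgeR adjusted p = 0.273). Tcfl5 (Entrez 277353, chromosome 2, 180621956 to 180642691) had 154, 149 and 144 FPKM in the libraries labelled cKO, against 139, 148 and 112 FPKM in those labelled control. The lowest were control replicates 3 and 1, and control replicate 2 lay inside the range of the libraries labelled cKO. The log2 difference was 0.26 (SE 0.13, edgeR adjusted p = 0.221). Tcfl5 shares 234 exonic bases with Col9a3 on the opposite strand in GENCODE M21. Whether the libraries keep strand is not stated in these sources, so reads of such pairs may be mixed.

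Rfx2 and Sox30, which act at the passage from meiosis to spermatids, had the library labelled control replicate 3 far below the other 5. Rfx2 (Entrez 19725, chromosome 17, 56775897 to 56831008), a winged-helix factor of cilium genes, had 154, 144 and 136 FPKM in the libraries labelled cKO, against 150.3, 132 and 98.4 FPKM in those labelled control. Control replicate 1 lay inside the range seen under the cKO label. Rfx2 had a log2 fold change of 0.28 (SE 0.16, edgeR adjusted p = 0.264) which was 0.12 without control replicate 3. Sox30 (Entrez 214105, chromosome 11, 45979069 to 46017992), an HMG-box factor of spermatid genes, had 85.9, 86.7 and 83.0 FPKM in the libraries labelled cKO, against 81.6, 78.6 and 57.05 FPKM in those labelled control. The groups did not overlap, but 2 libraries labelled control lay close by. Sox30 had a log2 fold change of 0.33 (SE 0.15, edgeR adjusted p = 0.188) which was 0.18 without control replicate 3.

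In Sox5 and Tbpl1 the library labelled control replicate 3 was again the lowest and replicate 2 the highest of its group. Sox5 (Entrez 20678, chromosome 6, 143828425 to 144782287), an HMG-box factor known in mouse testis from a short form, had 21.1, 21.2 and 20.2 FPKM in the libraries labelled cKO, against 17.5, 19.3 and 15.15 FPKM in those labelled control. No library labelled control reached the lowest of the other group. The FPKM of Sox5, and so its tier, depends on its deposited length. That length was 6269 ± 18.9 bases under the cKO label and 6268 ± 14.1 under the control label. Which form the reads came from was not examined. Its log2 fold change was 0.36 (SE 0.12, edgeR adjusted p = 0.166, DESeq2 adjusted p = 0.0939). Tbpl1 (Entrez 237336, chromosome 10, 22703877 to 22732666) had 83.55, 82.5 and 84.0 FPKM in the libraries labelled cKO, against 73.9, 85.1 and 61.4 FPKM in those labelled control. Control replicate 2 was here the highest of the 6 by FPKM, though not by CPM, where the groups did not overlap. The log2 fold change was 0.27 (SE 0.13, edgeR adjusted p = 0.218). Sox5 overlaps an antisense gene, Sox5os1, by 1330 exonic bases, and Tbpl1 overlaps Slc2a12 on the other strand by 407.

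Crem and its coactivator Fhl5 had differences of similar size and unlike spread. Crem (Entrez 12916, chromosome 18, 3266354 to 3337773), with 20 transcripts in the tables, had 77.75, 76.9 and 76.6 FPKM in the libraries labelled cKO, against 66.6, 74.3 and 55.7 FPKM in those labelled control. The libraries labelled cKO were nearly identical, with a coefficient of variation of 1.13% in CPM, against 17.3% in the other group. The log2 fold change was 0.33 (SE 0.13, edgeR adjusted p = 0.173, DESeq2 adjusted p = 0.148), and Gm6225 shares 472 exonic bases with Crem on the opposite strand. Fhl5 (Entrez 57756, chromosome 4, 25199907 to 25242852) had 205, 173 and 188 FPKM in the libraries labelled cKO, against 155, 183 and 135 FPKM in those labelled control. Control replicate 2 exceeded 1 library labelled cKO, so the groups overlapped. Its log2 fold change was 0.36 (SE 0.14, edgeR adjusted p = 0.173, DESeq2 adjusted p = 0.139).

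The count of calls turned on a single library, which set how many of the 9 passed. With control replicate 2 left out, 6 of the 9 rose in edgeR (Mybl1, Pou5f2, Sox5, Tbpl1, Crem and Fhl5), beside 11.0% of 18641 genes called higher and 20.7% called lower. The median of the 9 was then 0.43. Without control replicate 3 no gene of the 9 passed, and the median was 0.18 with a range of 0.12 to 0.39. In the libraries labelled control the 9 genes moved together. Replicate 3 was the lowest of that group in CPM for 9 of 9 genes, replicate 2 the highest for 8 of 9, and the distance of the group mean labelled cKO from each had a median of 0.58 log2 for replicate 3, 0.32 for replicate 1 and 0.098 for replicate 2. The coefficient of variation of CPM was larger in the libraries labelled control for all 9 genes, as for 79.8% of all genes tested.

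**Figure D2:**
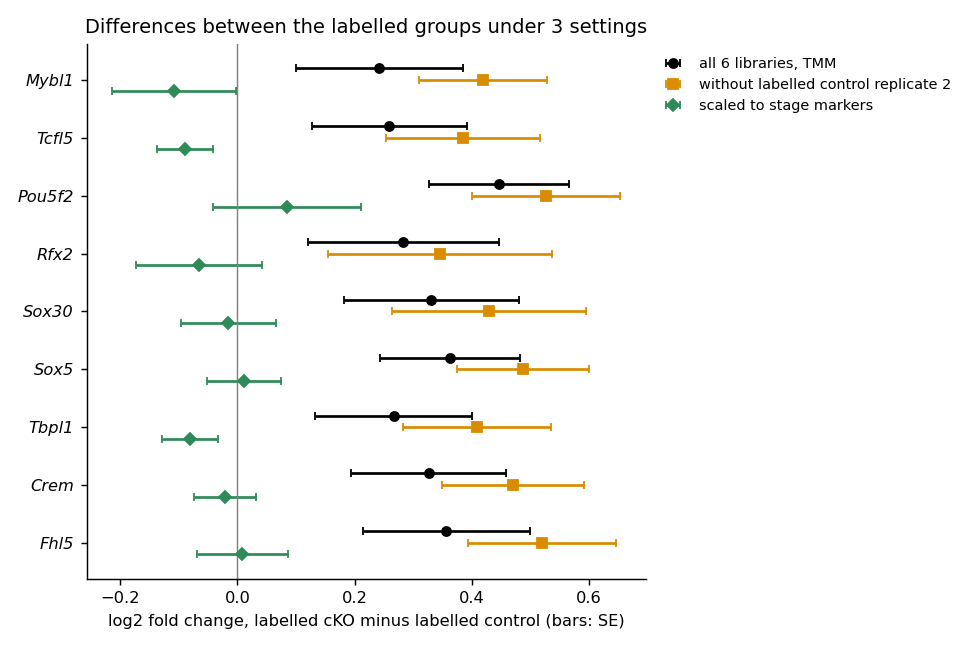
Log2 fold change of each gene, labelled cKO minus labelled control (x axis, bars are SE), in edgeR with all 6 libraries (black), without the library labelled control replicate 2 (orange) and scaled to pachytene and round spermatid markers (green). Black and orange points lie right of 0 for all 9 genes, while green points lie between -0.11 and 0.084 with 6 of 9 left of 0.

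Markers of several cell types moved with these differences, and those of others overlapped between the groups. By CPM, 18.0% of all genes were higher and 19.8% lower in every library labelled cKO, beside which the marker counts can be read. The 7 round spermatid markers summed to 1864 to 1953 CPM in the libraries labelled cKO and 1240 to 1698 in those labelled control, and all 7 were higher in every library labelled cKO. The 7 pachytene markers summed to 5999 to 6192 CPM in the libraries labelled cKO and 4072 to 5744 CPM in those labelled control, with 5 of 7 higher throughout. Leydig cell markers went the other way, at 1057 to 1153 CPM in the libraries labelled cKO and 1373 to 6622 in those labelled control, with 6 of 8 lower in every library labelled cKO. The 10 Sertoli cell markers summed to 1195 to 1262 CPM in the libraries labelled cKO and 1490 to 3840 in those labelled control, and 9 of them were lower in every library labelled cKO. Among the libraries labelled control, the Sertoli and Leydig sums were highest in replicate 3 and lowest in replicate 2, whereas 8 of the 9 genes were highest in replicate 2 and all 9 lowest in replicate 3. The 8 elongating spermatid markers had a median log2 fold change of 0.37, with 6 of 8 higher in every library labelled cKO. The 6 macrophage markers had a median of -1.45, with 3 of 6 lower in every library labelled cKO. Macrophage sums were 40.6 to 46.2 CPM in the libraries labelled cKO. They were 104, 46.7 and 204 CPM in control replicates 1, 2 and 3. Peritubular myoid markers summed to 336 to 357 CPM in the libraries labelled cKO and 344 to 399 in those labelled control. Of these 4, 1 was higher and 1 lower in every library labelled cKO. Endothelial markers summed to 17.9 to 24.7 CPM under the cKO label and 22.9 to 42.1 under the control label, with 0 of 4 separated. Blood cell markers summed to 16.7 to 48.1 CPM under the cKO label and 19.8 to 27.1 under the control label. The part of cell composition in the differences was not tested.

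**Figure D3:**
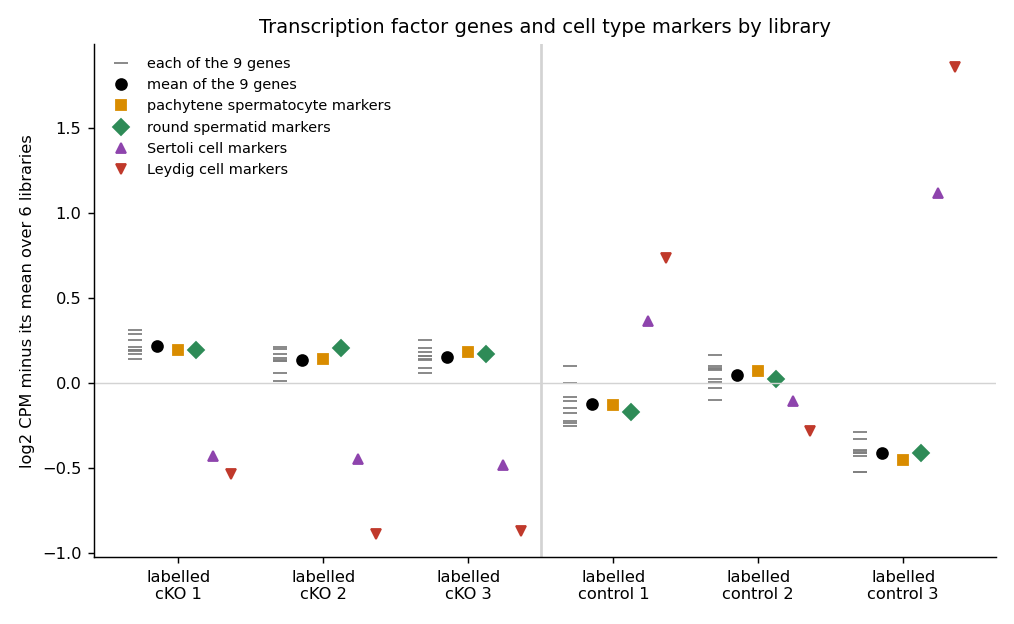
Log2 CPM minus its mean over the 6 libraries (y axis) for each of the 9 genes (grey), their mean (black) and the mean of 4 marker lists, by library (x axis). The mean of the 9 genes ran from -0.42 in the library labelled control replicate 3 to 0.22 in that labelled cKO replicate 1, beside the pachytene and round spermatid markers, while Sertoli and Leydig markers lay on the other side of 0 in all 6 libraries.

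Set against the mean log2 CPM of the 14 pachytene and round spermatid markers in the same library, the 9 genes differed little between the groups. Crem lay 0.58 ± 0.010 log2 units below the markers in the libraries labelled cKO and 0.56 ± 0.016 below them in those labelled control, a difference of -0.020. Those of Sox30, Sox5 and Fhl5 were -0.0098, 0.012 and 0.0068. Tcfl5 and Tbpl1 were lower in every library labelled cKO, with differences of -0.089 and -0.080, as was Crem, and Mybl1, Rfx2 and Pou5f2 overlapped at -0.11, -0.056 and 0.085. These 3 of 9 without overlap compare with 45.1% of all genes that lay lower in every library labelled cKO on this scale, and 0.991% that lay higher. The separation of Crem was lost with either marker list alone, at -0.0027 with pachytene markers (exact permutation p = 0.9) and -0.037 with round spermatid markers (exact permutation p = 0.3). The exact permutation test gave p = 0.1 for Tcfl5, Tbpl1 and Crem, two-sided and the least it can give. After Benjamini-Hochberg adjustment over the 9 genes this permutation p was 0.3 for each. Scaling edgeR to the same markers turned 6 of the 9 fold changes negative (median -0.021, lowest adjusted p 0.203) and moved the median of all genes to -0.38, so that all 9 stayed above it.

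The deposited transcript length, which in these tables follows the mix of isoforms, overlapped between the groups in the 7 genes where it varied. Tbpl1 differed most, at 3394 ± 25.7 bases in the libraries labelled cKO and 3424 ± 62.3 in those labelled control, a difference of -29.4 bases or -0.858% (exact permutation p = 0.5, two-sided). Its size and sign turned on single libraries, at 1.57 bases without control replicate 1 and -60.7 without control replicate 2. Crem stood at 2482 ± 9.90 bases in the libraries labelled cKO and 2487 ± 18.1 in those labelled control (exact permutation p = 0.9). The other 5 differed by at most 0.201%. L3mbtl2 itself stood at 3493 ± 4.83 bases in the libraries labelled cKO and 2717 ± 106 in those labelled control. Pou5f2 and Sox30 have 1 transcript each and a constant length.

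The genes whose profile over the 6 libraries lay nearest the mean profile of the 9, among 8479 candidates, were Slc2a3, Wdr31, Dpy19l2, Catsperd and Ccnb2. Likeness was the root mean square difference of centred log2 CPM, which was 0.014 to 0.016 for these 5 and 0.026 (Crem) to 0.11 (Rfx2) for the 9 genes themselves. Slc2a3 encodes a glucose transporter, Dpy19l2 a protein needed to form the acrosome, Catsperd a subunit of the sperm calcium channel and Ccnb2 a mitotic and meiotic cyclin. The 5 genes had log2 fold changes of 0.30 to 0.34. As they were picked by profile over the same 6 libraries, these values and their small distances follow from the choice.

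Genes linked to these factors were then taken from lists. The 9 spermatid genes linked to CREM, which encode chromatin-packing and sperm-tail proteins among others, were all positive, with a median of 0.37 (0.23 without control replicate 3) against -0.0048 for all genes. None passed in edgeR or DESeq2, and 7 of 9 were higher at an unadjusted p of 0.05 in edgeR, beside 8.85% of all genes. Without control replicate 2, edgeR called 5 of them higher (Prm1, Tnp1, Odf1, Smcp and Camk4), beside 11.0% of all genes. The protamine gene Prm1 was at 7818 ± 406 FPKM in the libraries labelled cKO and 6402 ± 1179.5 in those labelled control, and Prm2 at 7692 ± 457 under the cKO label and 6372 ± 1127 under the control label. Tnp2, a transition protein, was at 4296 ± 259 FPKM in the libraries labelled cKO and 3515 ± 640 in those labelled control. Prm1, Prm2, Tnp1, Tnp2, Odf1 and Smcp are also among the elongating spermatid markers above, so both medians rest largely on the same genes. Scaled to the stage markers, the median of the CREM-linked list was 0.019. Promoter windows were found for 6 of the 9 CREM-linked genes. Neither TGACGTCA nor the shorter TGACG was in any of their 7 windows, beside 1.79% and 20.8% of all windows. Only these exact letters in these windows were searched, so other forms of the element and sites elsewhere were not covered.

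The 8 piRNA pathway genes linked to MYBL1 were positive too, with a median of 0.29 (0.15 without control replicate 3), or -0.058 scaled to the stage markers. None passed in edgeR or DESeq2, and 2 of 8 (Tdrd5 and Pld6) were higher at an unadjusted p of 0.05, beside 8.85% of all genes. With control replicate 2 left out, 3 of 8 (Tdrd5, Mael and Pld6) passed, beside 11.0%. Mael, a factor of transposon silencing, stood at 707 ± 35.5 FPKM in the libraries labelled cKO and 615 ± 81.8 in those labelled control. Tdrd6, a Tudor-domain gene, was at 130.1 ± 4.13 FPKM under the cKO label and 112 ± 18.2 under the control label, and the PIWI gene Piwil1 at 101 ± 2.42 under the cKO label and 88.7 ± 15 under the control label. Promoter windows were found for 7 of the 8, and all 7 held the MYB core, in 9 of their 11 windows, against 32.8% of all windows. These windows are not all separate, as those of Tdrd12 overlap and share a match. Tdrd1 held the core only in its window at chr19:56830462-56830761, and not in those at chr19:56825959-56826258 and chr19:56826025-56826324. A gene with several windows has more places for a match, and the 32.8% is a share of windows, not genes. Those of Mael (chr1:166238695-166238994, minus strand) and Piwil1 (chr5:128735996-128736295, plus strand) are shown because both genes are known targets of MYBL1, again 5′ to 3′ with matches to AACNGNC in capitals.
Mael: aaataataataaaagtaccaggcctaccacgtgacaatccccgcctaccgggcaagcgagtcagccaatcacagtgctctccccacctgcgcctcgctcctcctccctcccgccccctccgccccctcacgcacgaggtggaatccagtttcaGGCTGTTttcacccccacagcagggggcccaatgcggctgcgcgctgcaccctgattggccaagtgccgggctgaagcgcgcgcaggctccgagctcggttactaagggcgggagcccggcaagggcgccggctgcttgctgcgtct
Piwil1: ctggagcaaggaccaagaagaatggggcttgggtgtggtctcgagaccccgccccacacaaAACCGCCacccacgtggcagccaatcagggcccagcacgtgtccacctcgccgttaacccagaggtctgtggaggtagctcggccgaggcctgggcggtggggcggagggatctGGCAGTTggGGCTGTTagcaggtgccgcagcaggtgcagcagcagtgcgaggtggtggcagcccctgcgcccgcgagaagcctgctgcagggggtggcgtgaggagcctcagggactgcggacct
Mael holds 1 match and Piwil1 holds 3, of which the last 2 are separated by a pair of bases.

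Among the 10 genes of the RFX-linked list, 9 cilium genes and the testis linker histone Hist1h1t, the median was 0.18 (0.086 without control replicate 3) and 9 were positive, beside 49.5% of all genes. Ift140, Ift172 and Ift122, which encode parts of the transport machinery of cilia, were at 104 ± 2.45, 89.6 ± 1.04 and 74.5 ± 0.609 FPKM in the libraries labelled cKO, against 87.7 ± 12.6, 76.7 ± 12.2 and 65.2 ± 8.37 FPKM in those labelled control. The Bardet-Biedl genes Bbs2 and Bbs4 had log2 fold changes of 0.011 and -0.0066. None of the 10 passed in edgeR, in DESeq2 or without control replicate 2, and 2 (Ift122 and Ift140) were higher at an unadjusted p of 0.05, beside 8.85% of all genes. The median was -0.17 scaled to the stage markers. The 4 sperm genes linked to SOX5 had a median of 0.32 (0.19 without control replicate 3), or -0.030 scaled to the stage markers. Spag6l, an axoneme gene, was at 131 ± 3.41 FPKM in the libraries labelled cKO and 114 ± 18.0 in those labelled control. Its close copy Spag6 was at 81.1 ± 2.92 FPKM under the cKO label and 71.9 ± 11.3 under the control label, and Spag16, also of the axoneme, at 67.8 ± 2.68 under the cKO label and 55.9 ± 10.8 under the control label. None passed in edgeR or DESeq2, and 1 of 4 (Catsper1) was higher at an unadjusted p of 0.05, beside 8.85% of all genes. All 4 were called higher without control replicate 2, beside 11.0%. Spag6 and Spag6l are alike in sequence, and reads may have been split between them.

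Next came general transcription factors and partners. Of 9 measured genes, 6 were positive and the median was 0.23 (0.12 without control replicate 3), or -0.13 scaled to the stage markers. Gtf2a1l, a TFIIA subunit of germ cells, was at 176 ± 6.72 FPKM in the libraries labelled cKO and 152 ± 23.8 in those labelled control. Kif17, a motor that carries FHL5 out of the nucleus, was at 141 ± 5.69 FPKM under the cKO label and 116 ± 18.5 under the control label. Brdt, a bromodomain protein of spermatocytes, was at 106 ± 4.52 FPKM under the cKO label and 91.0 ± 13.3 under the control label. Gtf2a1, the widely expressed counterpart of Gtf2a1l, had a log2 fold change of -0.0035, and Taf4b, a TFIID subunit, one of -0.30. None of the 9 passed in edgeR or DESeq2, and 1 (Kif17) was higher at an unadjusted p of 0.05, a share near the 8.85% of all genes. Without control replicate 2, 3 of 9 (Gtf2a1l, Gtf2a2 and Brdt) were called higher, beside 11.0%.

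Of the relatives of the 9 factors, 15 were tested. Of these, 9 were positive and 6 negative, with a median of 0.14 (-0.22 scaled to the stage markers) and a range from -1.03 to 0.42. Fhl4, a testis relative of Fhl5, was the most abundant at 992 ± 29.8 FPKM in the libraries labelled cKO and 833 ± 116 in those labelled control. Rfx1 was at 43.5 ± 2.03 FPKM under the cKO label and 37.5 ± 6.38 under the control label, and Atf1, a relative of CREM, at 38.7 ± 1.56 under the cKO label and 38.2 ± 1.73 under the control label. None passed in edgeR or DESeq2, and at an unadjusted p of 0.05 in edgeR 2 were higher and 4 lower, beside 8.85% and 18.8% of all genes. Without control replicate 2, edgeR called 3 of 15 higher (Fhl4, Rfx4 and Sox6), beside 11.0% of all genes, and 3 lower (Fhl1, Fhl2 and Sox13), a share near the 20.7% of all genes. Fhl1, a relative of Fhl5 also made in muscle, had 5.09 ± 0.485 FPKM in the libraries labelled cKO and 9.31 ± 3.32 in those labelled control (log2 -0.76, SE 0.24, edgeR adjusted p = 0.166).

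Of 14 other germline regulators tested, 10 were positive, with a median of 0.23 over the list (0.13 without control replicate 3, and -0.13 scaled to the stage markers). The RNA- and DNA-binding protein gene Ybx2 was at 1347 ± 62.8 FPKM in the libraries labelled cKO and 1125 ± 197 in those labelled control. Dmrtb1, of the DM-domain family, was at 321 ± 21.9 FPKM under the cKO label and 268 ± 49.5 under the control label. Kctd19, a meiotic gene, was at 156 ± 0.824 FPKM under the cKO label and 138 ± 22.8 under the control label. In edgeR 0 passed, with 3 higher and 2 lower at an unadjusted p of 0.05, beside 8.85% and 18.8% of all genes. The 4 negative genes were Stra8 (log2 -0.32), Sohlh2 (-0.11), Dmrt1 and Zbtb16, whereas Sohlh1, also a factor of spermatogonia, was at 0.27 and Egr4 at 0.072. Dmrt1, which holds germ cells in the mitotic programme and is also made in Sertoli cells, had 7.55 ± 0.373 FPKM in the libraries labelled cKO and 12.5 ± 2.17 in those labelled control (log2 -0.63, SE 0.15). It did not pass in edgeR (adjusted p = 0.166) and fell in DESeq2 (adjusted p = 0.0218), the 1 call of either tool in these 7 lists, beside 7.67% of genes called lower. Zbtb16, a factor of undifferentiated spermatogonia, had 0.760 ± 0.0889 FPKM in the libraries labelled cKO and 1.74 ± 0.928 in those labelled control, and Dmrt1 and Zbtb16 were called lower without control replicate 2, beside 20.7% of all genes. The 8 spermatogonial markers, which include Stra8, Dmrt1 and Zbtb16, summed to 126 to 136 CPM in the libraries labelled cKO. In those labelled control they summed to 159 to 258 CPM. Of the 8, 6 were lower in every library labelled cKO, beside 19.8% of all genes. This sum therefore restates in part the genes named above.

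**Figure D4:**
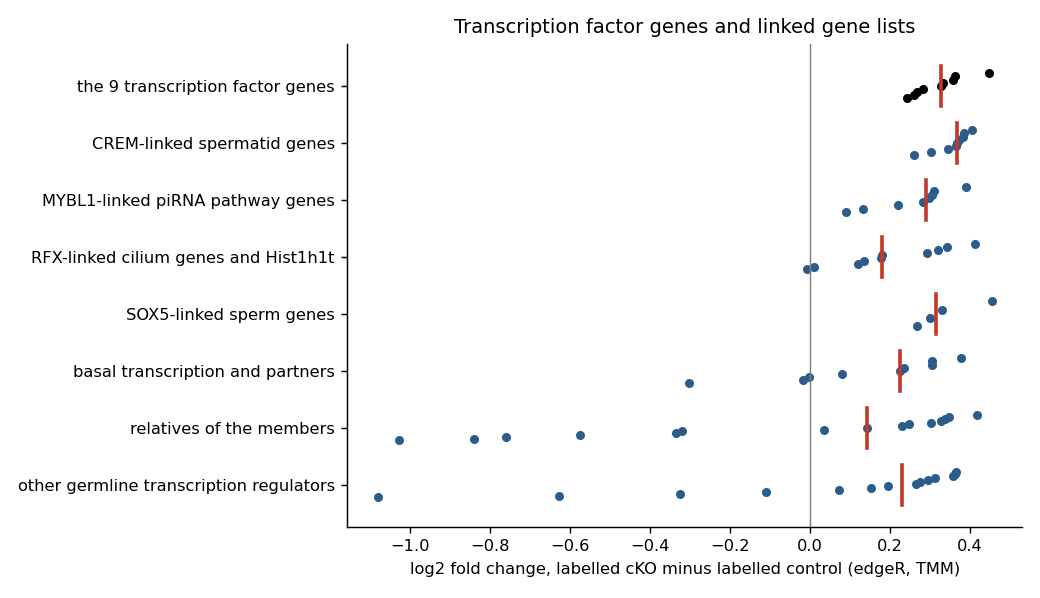
Log2 fold change in edgeR, labelled cKO minus labelled control (x axis), of the 9 transcription factor genes (black) and of each gene in 7 linked lists (blue), with medians as red bars. The 9 genes and the CREM-, MYBL1- and SOX5-linked lists lie right of 0 throughout, with medians of 0.33, 0.37, 0.29 and 0.32, which were -0.021, 0.019, -0.058 and -0.030 when scaled to the stage markers.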

How the data were processed

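Per the file headers, each deposited table gives an expected count, an FPKM and a length per gene. RSEM, HISAT2 2.0.4, Bowtie2 2.2.5, bcl2fastq 2.16, DESeq2 and build mm10 are named, with no role, in the submitters' processing notes. The deposited expected counts are not normalized and the authors scaled FPKM for length and depth. Genes under an FPKM of 0.01 are not listed, and a missing gene was set to 0. Libraries were grouped by title.

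Expected counts were rounded to whole numbers. The test was edgeR (4.0.16, under R 4.3.3), after filterByExpr (minimum count 10, minimum total 15), with TMM scaling, the quasi-likelihood F-test and Benjamini-Hochberg adjustment at 0.05 over 18269 genes. The common coefficient of variation was 22.8%. Log2 CPM used a prior count of 2. DESeq2 1.42.0, limma 3.58.1 on log2(FPKM + 1) or log2(FPKM + 0.1) where 3 libraries or more reached 1 FPKM, other scalings, no filter, a replicate block and leaving out each library were alternatives. The edgeR step was tested on simulated data. Single values had exact permutation tests.

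The members and lists were chosen with earlier results of these data known. Named genes were the 9 members, L3mbtl2, the 3 most abundant and every called member of each list, and the 5 genes most like the 9 (mean FPKM of at least 5). Other genes named in the lists were chosen after their values were seen. Coordinates are from RefSeq (GRCm38.p6, the build that mm10 is drawn from). Tbpl2 and Gm4969 were not listed and Myb was too low to test.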

Additional observations from a re-analysis of the deposited data

How the results depend on the processing

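With all 6 libraries, edgeR called 0 genes higher and 0 lower, while DESeq2 called 72 and 1364 and limma on log2(FPKM + 1) or log2(FPKM + 0.1) called 1 higher. Leaving out each library in turn gave 0 to 2049 genes higher and 0 to 3851 lower, and 0 to 6 of the 9 factors called, the upper values without the library labelled control replicate 2. DESeq2 called 1 of the 9. Scaling to the stage markers, which moved the median of all genes to -0.38, turned Mybl1 to -0.11, Tcfl5 to -0.090, Rfx2 to -0.066, Sox30 to -0.016, Tbpl1 to -0.081 and Crem to -0.021; the cause was not tested. Library totals moved that median to -0.10 and kept all 9 positive, at 0.15 to 0.35. The median of the 9 minus that of all genes was 0.18 (without control replicate 3) to 0.41 (without control replicate 2) over all settings. By library totals, the median of relatives was 0.044 and that of RFX-linked genes 0.083. With each library left out, list medians ran from 0.23 to 0.50 (CREM-linked), 0.15 to 0.41 (MYBL1-linked), 0.086 to 0.30 (RFX-linked), 0.19 to 0.48 (SOX5-linked), 0.12 to 0.35 (general factors and partners), 0.099 to 0.22 (relatives) and 0.13 to 0.28 (other regulators), lowest without control replicate 3 and highest without control replicate 2. Crem beside the stage markers lay at -0.0027 and -0.037 with pachytene or round spermatid markers alone. The numbers did not pair the libraries: same-numbered deviations correlated at 0.043, -0.0067 and -0.039. With a replicate block, edgeR called 0 genes and 0 of the 9 factors, whose median was 0.34. Each of the 9 genes had 407 or more counts in every library. An exact test of 3 libraries against 3 cannot go below p = 0.1.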
